A study of Mus musculus with 12 samples.

Results

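Hearts under pressure overload were compared between mice fed a diet without branched-chain amino acids and mice fed a control diet that contained them. Branched-chain amino acids (BCAA) are leucine, isoleucine and valine. The comparison takes 6 of the 12 libraries of the study, 3 of the group called control TAC here and 3 of the group called BCAA-free TAC. All of them are male C57Bl/6J mice, 12 weeks old, that had transverse aortic constriction (TAC), a surgical narrowing of the aorta that raises the pressure against which the left ventricle pumps. Both diets carried 1% propionate, so propionate is common to the groups and its effect cannot be read from them. Feeding started 4 days before surgery, went on after it, and hearts were collected 1 week past the operation. The other 6 libraries are sham-operated mice on the same diets, 3 of each. Of 16234 genes in the authors' table for these groups, the 16222 with a mean of at least 10 were tested. The labels name no separate mouse for each library, so a p-value here sets the diets against how far libraries of 1 diet differ, and that spread could be technical only.

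Some background helps to place the genes. Pressure overload makes cardiac muscle cells grow without dividing, while fibroblasts, endothelial cells and immune cells of the heart can enter the cell cycle. Progress through the cycle rests on cyclins and cyclin-dependent kinases, on E2F transcription factors that turn on genes for DNA replication, and on a later set of genes that build the mitotic spindle and separate the daughter cells. BCAA are essential amino acids that heart muscle takes up and oxidises in mitochondria, and leucine also signals amino acid supply to the growth kinase complex mTORC1. Propionate enters metabolism as propionyl-CoA, an intermediate that the breakdown of isoleucine and valine also produces.

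Recovered reads per library ranged from 36383837 to 46099197. Some control libraries stand apart by their RNA. The levels of gene groups are given in CPM, reads scaled to the same total in every library. Control TAC 3 held 23043 reads of 32 liver genes (95% exact binomial interval 579 to 594 CPM, counting error only), against 53.7 to 91.7 CPM in the other 5 TAC libraries, and 6668 reads of the albumin gene Alb against 0 to 3. For 3 short RNAs that polymerase III transcribes, control TAC 2 held 122 CPM, and the other 5 held 1.6 to 8.7 CPM. The part of either in the results was not tested. Results are therefore also given without control TAC 2 and 3, where control TAC 1 is the lone control and is assumed to vary like the BCAA-free libraries.

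The leading difference was in genes of cell division. Of 32 genes of mitosis 30 were lower on the BCAA-free diet past an adjusted p of 0.05 and 0 were higher, with a median log2 difference of -2.40 against 0.00 over all genes tested. Of 30 genes of DNA replication 19 were lower and 0 were higher, with a median of -0.97. Over all genes tested 2.11% were lower and 1.27% were higher. With limma, the main test, 3222 of the 16222 genes had an unadjusted p under 0.05. DESeq2, an alternative, called 1188 genes. Differences are given as BCAA-free minus control on the scale log2(normalised reads + 4), with the SE of the fit and n = 3 per group, and this scale understates the change of low genes. Normalised reads are reads scaled by a factor for each library.

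The start regions of some of these genes are shown because the genes fell together and their promoters are known for shared short elements. The CCAAT box and the cell cycle genes homology region (CHR) are background knowledge for genes expressed late in the cycle, and E2F sites for genes of the entry into replication. Windows of 300 bases from RefSeq on GRCm38.p6, 250 before and 50 after the start, run 5′ to 3′ on the strand of the gene, so that the last 50 bases lie in its transcript. Capitals mark CCAAT, the CHR word TTTGAA and the E2F words TTTCCCGC, TTTCGCGC, TTTGCCGC and TTTGGCGC, on either strand and with overlaps merged. Mki67 (chr7:135716330-135716629, minus strand), Top2a (chr11:99024140-99024439, minus strand), Cdk1 (chr10:69352863-69353162, minus strand) and Racgap1 (chr15:99651607-99651906, minus strand) are shown for mitosis, and Mcm5 (chr8:75109259-75109558, plus strand) and E2f1 (chr2:154569377-154569676, minus strand) for DNA replication. The E2f1 window holds none of these words. It lies inside the gene as GENCODE annotates it (chr2:154559407-154569892, minus strand). The region before that annotated start is not shown, so the window does not tell which words that region holds.
Mki67: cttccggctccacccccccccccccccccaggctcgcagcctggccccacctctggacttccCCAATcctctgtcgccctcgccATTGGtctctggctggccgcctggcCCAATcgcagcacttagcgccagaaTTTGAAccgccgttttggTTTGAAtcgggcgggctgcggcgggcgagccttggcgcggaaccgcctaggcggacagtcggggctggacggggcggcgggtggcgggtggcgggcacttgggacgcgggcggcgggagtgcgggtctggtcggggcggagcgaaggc
Top2a: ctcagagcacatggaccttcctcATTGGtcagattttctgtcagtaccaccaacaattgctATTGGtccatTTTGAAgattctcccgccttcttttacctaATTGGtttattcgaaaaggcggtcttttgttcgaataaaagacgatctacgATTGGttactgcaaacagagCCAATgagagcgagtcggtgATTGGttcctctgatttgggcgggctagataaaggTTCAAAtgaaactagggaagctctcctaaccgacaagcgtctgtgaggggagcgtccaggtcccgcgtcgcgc
Cdk1: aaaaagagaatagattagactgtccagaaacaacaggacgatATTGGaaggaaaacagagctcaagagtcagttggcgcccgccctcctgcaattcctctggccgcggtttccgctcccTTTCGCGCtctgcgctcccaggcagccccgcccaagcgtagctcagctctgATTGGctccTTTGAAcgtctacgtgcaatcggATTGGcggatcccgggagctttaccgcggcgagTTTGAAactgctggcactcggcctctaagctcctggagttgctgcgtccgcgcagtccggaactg
Racgap1: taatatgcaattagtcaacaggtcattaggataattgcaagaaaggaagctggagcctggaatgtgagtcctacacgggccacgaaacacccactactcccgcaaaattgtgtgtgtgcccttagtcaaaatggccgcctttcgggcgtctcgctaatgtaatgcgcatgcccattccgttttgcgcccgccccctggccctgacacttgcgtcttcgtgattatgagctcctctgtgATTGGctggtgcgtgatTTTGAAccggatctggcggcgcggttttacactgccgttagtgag
Mcm5: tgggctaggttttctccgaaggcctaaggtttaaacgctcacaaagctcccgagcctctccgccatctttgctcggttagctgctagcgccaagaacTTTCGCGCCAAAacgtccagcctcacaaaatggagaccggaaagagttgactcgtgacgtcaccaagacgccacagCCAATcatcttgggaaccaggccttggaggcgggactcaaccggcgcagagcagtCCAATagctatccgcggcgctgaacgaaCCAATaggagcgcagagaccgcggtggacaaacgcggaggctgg
E2f1: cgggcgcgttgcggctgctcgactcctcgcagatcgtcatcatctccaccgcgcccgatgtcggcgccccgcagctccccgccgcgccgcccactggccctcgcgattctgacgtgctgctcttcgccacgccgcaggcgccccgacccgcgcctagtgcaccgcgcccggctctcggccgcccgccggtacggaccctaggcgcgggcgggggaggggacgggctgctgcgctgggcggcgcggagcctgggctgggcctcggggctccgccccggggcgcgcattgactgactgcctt

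The CHR word stood in 25 of the 31 windows found for 28 genes of the mitosis list, or 80.6%, against 12.2% of the 14675 windows found for 11519 of the genes tested. CCAAT stood in 77.4% of the mitosis windows against 37.2% of all windows. In the 25 windows of 23 DNA replication genes, 12% held the CHR word, 68% held CCAAT and 36% held an E2F word, against 3.6% of all windows for the last. Among the 265 windows of genes that were lower but stand in neither list, 21.9% held the CHR word and 10.6% an E2F word. In the 190 windows of genes that were higher, these shares were 11.1% and 3.68%. The lower genes outside both lists still include genes of cell division, such as Nek2, Pbk, Clspn and Lig1. The shares of the mitosis and DNA replication lists cover members called or not, so they describe the lists and are no result of the diet. A match is a stretch of letters, not a shown binding site. Of the 32 CHR matches in mitosis windows 25 began within 50 bases of the start. The 2 overlapping windows of Prc1 hold the same CHR word, which is counted in both. The positions of matches in all windows were not computed, so this share has no background beside it.

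The mitosis genes that carry the finding were low in each BCAA-free library. Mki67 encodes the Ki-67 protein, which coats mitotic chromosomes and marks cycling cells. It had 998, 895 and 991 normalised reads in control TAC 1, 2 and 3 and 167, 56.4 and 58.2 in BCAA-free TAC 1, 2 and 3 (log2 -3.48 ± 0.35, adjusted p = 0.00305). Top2a, the topoisomerase that untangles replicated DNA, had 668, 602 and 597 normalised reads in control TAC 1, 2 and 3 and 125, 42.3 and 51.2 in BCAA-free TAC 1, 2 and 3 (log2 -3.18 ± 0.33, adjusted p = 0.00307). Cdk1, the kinase that drives entry into mitosis, had 206, 195 and 189 normalised reads in control TAC 1, 2 and 3 and 36.3, 15.2 and 15.6 in BCAA-free TAC 1, 2 and 3 (log2 -3.02 ± 0.29, adjusted p = 0.00302). For these 3 genes the highest BCAA-free library was replicate 1, and it still lay far under the lowest control library. The gap was as wide against control TAC 1 alone, at -3.54 for Mki67, -3.28 for Top2a and -3.08 for Cdk1.

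Genes of the spindle and of the final separation of the cells followed. Racgap1, a regulator of the small GTPases that shape the cleavage furrow, had 382, 309 and 373 normalised reads in control TAC 1, 2 and 3 and 91.3, 47.7 and 56.5 in BCAA-free TAC 1, 2 and 3 (log2 -2.42 ± 0.23, adjusted p = 0.00302). Prc1, which bundles microtubules at the spindle midzone, had 339.9, 302 and 300.3 normalised reads in control TAC 1, 2 and 3 and 86.9, 52 and 59.9 in BCAA-free TAC 1, 2 and 3 (log2 -2.21 ± 0.19, adjusted p = 0.00302). Nek2, a kinase of the centrosome that stands outside the list, had 112, 88.3 and 116 normalised reads in control TAC 1, 2 and 3 and 23.1, 3.25 and 6.08 in BCAA-free TAC 1, 2 and 3 (log2 -3.11 ± 0.45, adjusted p = 0.00829). No BCAA-free library reached a control library in any of the 3 genes. Other members of the list past the threshold, picked after their values were seen, were the cyclins Ccna2 (-2.60) and Ccnb1 (-2.37), the mitotic kinases Plk1 (-2.19) and Aurkb (-2.75), the spindle motor Kif11 (-2.50) and the checkpoint kinase Bub1b (-1.95). Of these, Aurkb did not pass with control TAC 2 or BCAA-free TAC 2 left out (adjusted p = 0.0665 and 0.0667). The 2 members that did not pass were Cenpf (log2 -0.28 ± 0.25, adjusted p = 0.592) and Cenpa (log2 -0.01 ± 0.07, adjusted p = 0.968), a kinetochore protein and the histone variant of the centromere. In the list 23 of 32 members passed whichever library was left out, and 32 of 32 had a negative difference with and without control TAC 2 and 3.

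Among genes past the threshold and named for the largest falls, several stand outside the mitosis list. Pimreg, a regulator of the passage from metaphase to anaphase, had 197, 142 and 199 in the controls and 29.7, 9.76 and 5.21 on the BCAA-free diet (log2 -3.48 ± 0.43, adjusted p = 0.00517). Pbk, a mitotic kinase, had 105, 106 and 95.5 in the controls and 11, 5.42 and 2.61 on the BCAA-free diet (log2 -3.44 ± 0.33, adjusted p = 0.00302). Ckap2l, a spindle protein, had 151, 150.5 and 156 in the controls and 27.5, 5.42 and 14.8 on the BCAA-free diet (log2 -3.14 ± 0.39, adjusted p = 0.00519). All 3 had few reads left in BCAA-free TAC 2 and 3 and somewhat more in BCAA-free TAC 1, with every control far above them. Pclaf, a partner of the replication clamp PCNA, had 206, 217 and 121 in the controls and 27.5, 7.59 and 20 on the BCAA-free diet (log2 -3.13 ± 0.38, adjusted p = 0.00509). Mxd3, a transcription factor of the MYC and MAX network, had 124, 80.7 and 113 in the controls and 24.2, 5.42 and 4.34 on the BCAA-free diet (log2 -3.06 ± 0.45, adjusted p = 0.00915). Mxd3 did not pass with BCAA-free TAC 2 left out (adjusted p = 0.0546), while Pimreg, Pbk, Ckap2l, Pclaf and Nek2 passed whichever library was left out.

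Genes of DNA replication were lower by a smaller amount than those of mitosis. Uhrf1, which helps to copy DNA methylation onto new strands, had 410.4, 359.8 and 307 normalised reads in control TAC 1, 2 and 3 and 60.5, 41.2 and 46 in BCAA-free TAC 1, 2 and 3 (log2 -2.78 ± 0.19, adjusted p = 0.000794). Mcm5, a subunit of the replicative helicase, had 552, 479.7 and 383 normalised reads in control TAC 1, 2 and 3 and 142, 97.6 and 143 in BCAA-free TAC 1, 2 and 3 (log2 -1.86 ± 0.19, adjusted p = 0.00305). E2f1, a transcription factor of the entry into replication, had 221, 178 and 167 normalised reads in control TAC 1, 2 and 3 and 48.4, 22.8 and 26.1 in BCAA-free TAC 1, 2 and 3 (log2 -2.46 ± 0.27, adjusted p = 0.00408). In all 3 the control and BCAA-free libraries stood apart, and within the controls replicate 1 was the highest. Outside the list Clspn, an adaptor of the replication checkpoint, had 152, 104 and 114 in the controls and 13.2, 13 and 10.4 on the BCAA-free diet (log2 -2.96 ± 0.24, adjusted p = 0.00253), and Lig1, the ligase that joins newly made fragments, had 522, 521 and 446 in the controls and 190.3, 181 and 216 on the BCAA-free diet (log2 -1.32 ± 0.12, adjusted p = 0.00302). The subunits of the helicase ring ranged from -1.86 for Mcm5 and -1.24 for Mcm3 to -0.43 for Mcm7 and -0.25 for Mcm4, the last pair not past the threshold (adjusted p = 0.0745 and 0.369). Rrm2, the subunit that limits deoxynucleotide supply, was lower (log2 -2.12 ± 0.32, adjusted p = 0.00952), and its partner Rrm1 fell less (log2 -0.39 ± 0.08, adjusted p = 0.0311). Rrm2 did not pass with control TAC 2 left out (adjusted p = 0.0525), nor Rrm1 with any 1 library other than BCAA-free TAC 1 left out (adjusted p = 0.0843 to 0.142). The 30 members were negative in 30 cases with and without control TAC 2 and 3, and 8 passed whichever library was left out.

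Genes that act before replication were also lower in part. Ccnd1, the cyclin D1 gene that links growth signals to the cycle, had 3079, 3581 and 3338 normalised reads in control TAC 1, 2 and 3 and 1611, 1102 and 915 in BCAA-free TAC 1, 2 and 3 (log2 -1.50 ± 0.18, adjusted p = 0.00464). Ccnd3, another D-type cyclin, had 2926, 2833 and 2852 normalised reads in control TAC 1, 2 and 3 and 2275, 1992 and 2149.5 in BCAA-free TAC 1, 2 and 3 (log2 -0.43 ± 0.07, adjusted p = 0.0155). Both were lower in every BCAA-free library than in any control library. Ccnd3 did not pass with control TAC 2 or 3, or BCAA-free TAC 2 or 3 left out (adjusted p = 0.0511 to 0.0773). In the list of cyclin-dependent kinase inhibitors and growth arrest, which also holds the D-type cyclins, these 2 of 16 were the members that passed. Ccnd2 (log2 -0.19 ± 0.12, adjusted p = 0.423), the inhibitor genes Cdkn1a (log2 0.29 ± 0.11, adjusted p = 0.199) and Cdkn1b (log2 0.30 ± 0.09, adjusted p = 0.108) and the stress gene Gadd45g (log2 -0.75 ± 0.18, adjusted p = 0.0625) did not. The median of that list was -0.08.

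**Figure D1:**
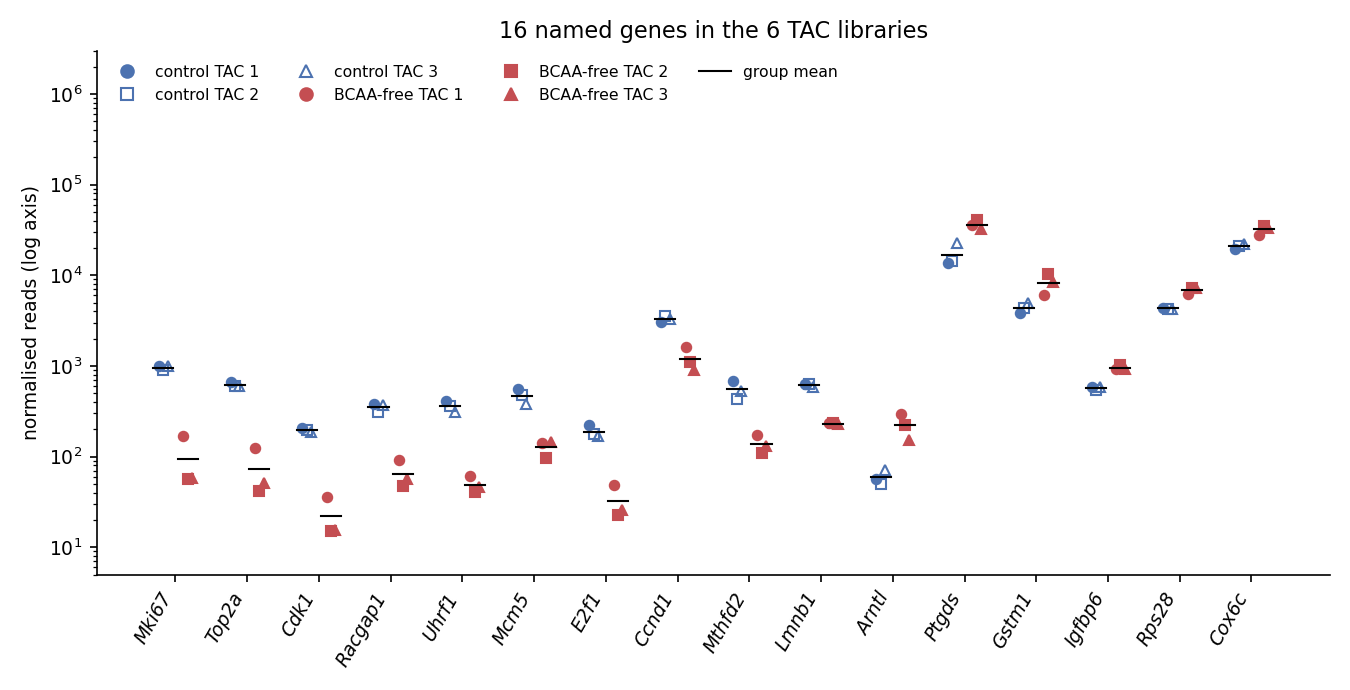
Normalised reads (log axis) of 16 named genes in each of the 6 TAC libraries, blue for control TAC and red for BCAA-free TAC, with 1 symbol per replicate, open symbols for control TAC 2 and 3 and a black line at each group mean. In every gene drawn the groups do not overlap; the 10 genes on the left are lower and the 6 on the right are higher on the BCAA-free diet.

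Summed over the 25 mitosis genes found in both diet tables, control TAC hearts held 214, 185 and 200.2 CPM, and BCAA-free TAC hearts held 79, 58.2 and 73.3 CPM. Sham hearts held 80.2, 103 and 75.5 CPM on the control diet and 76.7, 73.5 and 76.4 CPM on the BCAA-free diet. The BCAA-free TAC sums therefore lay in or under the range of the sham sums, and the control TAC sums lay above all others. A sum is weighted to the members with most reads, so single genes can differ from it. Mki67 had means of 4.15 CPM in control sham, 1.05 in BCAA-free sham, 24.95 in control TAC and 2.33 in BCAA-free TAC hearts. Top2a had 2.53, 0.73, 16.2 and 1.81 CPM in the same order. Both were thus higher in BCAA-free TAC than in BCAA-free sham hearts by their means. DNA replication genes, 30 in number, summed to 264, 241 and 215 CPM in control TAC and 133, 126 and 138 CPM in BCAA-free TAC hearts. Their sums were 146, 160.0 and 128 CPM in control sham and 137, 141 and 131 CPM in BCAA-free sham hearts, again with the control TAC libraries highest. These sums use whole reads recovered from tables that the authors normalised separately, over the genes that both tables list.

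Markers of the cell types that a heart holds are set beside these falls. The 14 endothelial markers summed to 1737 to 1923 CPM in control and 1556 to 1702 CPM in BCAA-free TAC hearts, and 1 of them, Pecam1, was lower past the threshold (log2 -0.34 ± 0.08, adjusted p = 0.048), but did not pass with any 1 of the 6 libraries left out (adjusted p = 0.0511 to 0.186). The 22 macrophage markers summed to 372 to 619.6 CPM in control and 449 to 558 CPM in BCAA-free TAC hearts. Past the threshold were 0 by limma and 2 by DESeq2. At an unadjusted limma p under 0.05 there were 2, against 3222 of all 16222 genes. The macrophage median was 0.01 with all libraries and -0.35 without control TAC 2 and 3, where 20 of 22 were negative. The 13 fibroblast markers summed to 1988 to 2263 CPM in control and 2316 to 2781 CPM in BCAA-free TAC hearts, with 2 higher, Dpep1 and Dcn. Across these 13 genes the median was 0.14, with 8 positive and 5 negative. Without control TAC 2 and 3 it was 0.14, with 7 positive and 6 negative, so the sums do not stand for every marker. Endothelial sums were thus lower and fibroblast sums higher on the BCAA-free diet without overlap, and macrophage sums overlapped. The part of these markers in the falls was not tested, and in whole hearts fewer cells of a type and less RNA per cell cannot be told apart. The 10 cardiomyocyte markers fit the label of heart tissue, with 76187 to 83364 CPM in control and 82565 to 95134 CPM in BCAA-free TAC hearts and 0 of them at 0 in any library. Their median was 0.19, with 8 positive and 2 negative, and 0.38 without control TAC 2 and 3. By limma 0 passed the threshold and by DESeq2 4.

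**Figure D2:**
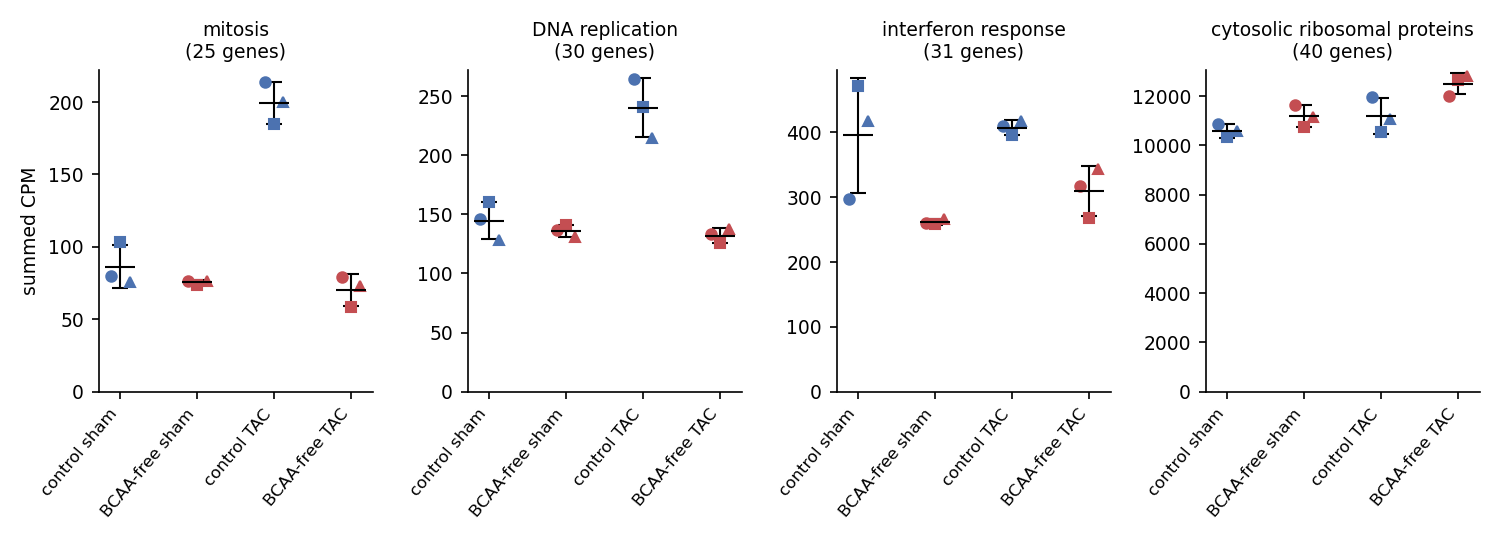
Summed CPM (axis from 0) of 4 gene lists in each of the 12 libraries, blue for the control diet and red for the BCAA-free diet, with 1 symbol per replicate and black bars for the mean ± SD of 3 libraries. The mitosis and DNA replication sums of control TAC hearts stand above the other 3 groups; the interferon sums are lower on the BCAA-free diet in TAC hearts, and the ribosomal protein sums are higher.

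In the whole comparison 206 genes were higher and 342 lower on the BCAA-free diet, with 10 and 174 at 2-fold or more. That number of 548 became 333, 138 and 242 without control TAC 1, 2 and 3, and 1044, 178 and 287 without BCAA-free TAC 1, 2 and 3. Without control TAC 2 the calls were 28 higher and 110 lower, and with no intensity trend in limma they were 34 higher and 143 lower, so the rises shrank more than the falls. The fit with no trend ended the call of 32 of the 67 named genes, at adjusted p = 0.0526 to 0.156, namely Ptgds, mt-Tc, Smim4, Gstm1, mt-Tn, Nek2, Mxd3, Myh7, Myom2, Plod1, Dcn, Acadsb, Acot13, Sdhc, Cox6c, Cox6b1, Ndufa2, Cebpb, Rpl37, Ccnd3, Bst2, Ifit2, Oasl2, Serping1, Wee1, Gstm2, Prdx1, Map1lc3b, Map1lc3a, Ctsl, Apln and Aplnr. In every one of the 6 fits that left out 1 library the same 125 genes passed, 24 higher and 101 lower. Without both control TAC 2 and 3, limma called 0 genes, the lowest adjusted p being 0.0803, with 1889 at an unadjusted p under 0.05, and edgeR called 11, of which 1 was higher and 10 were lower. Of the 544 called genes that could still be tested, the 206 that were higher and the 338 that were lower kept their sign, 203 and 322 of them at an unadjusted p under 0.05. These genes were chosen on all 6 libraries, 4 of which are used again, so the kept signs and low p are no independent check. No gene passes against control TAC 1 alone by limma, so the differences without both libraries are given as values.

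**Figure D3:**
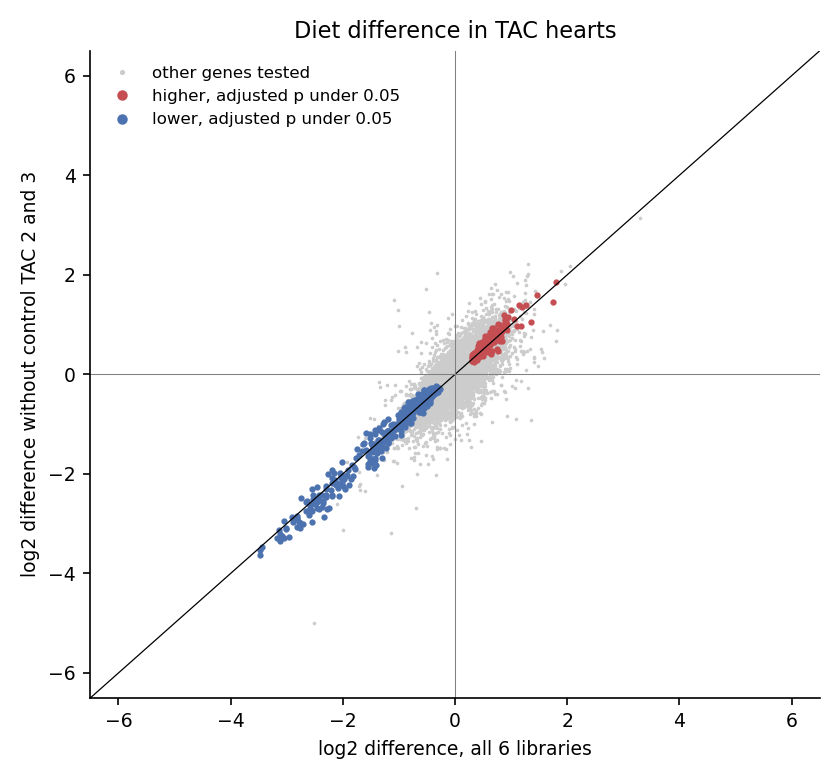
Log2 difference (BCAA-free minus control) of each gene tested with all 6 libraries (horizontal axis) and without control TAC 2 and 3 (vertical axis), red and blue for genes higher and lower past the threshold in the full comparison, grey for the rest and a line of equality. The coloured genes lie to the lower left and upper right of 0, 206 of 206 higher genes and 338 of 338 lower genes with the same sign in both.

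**Figure D4:**
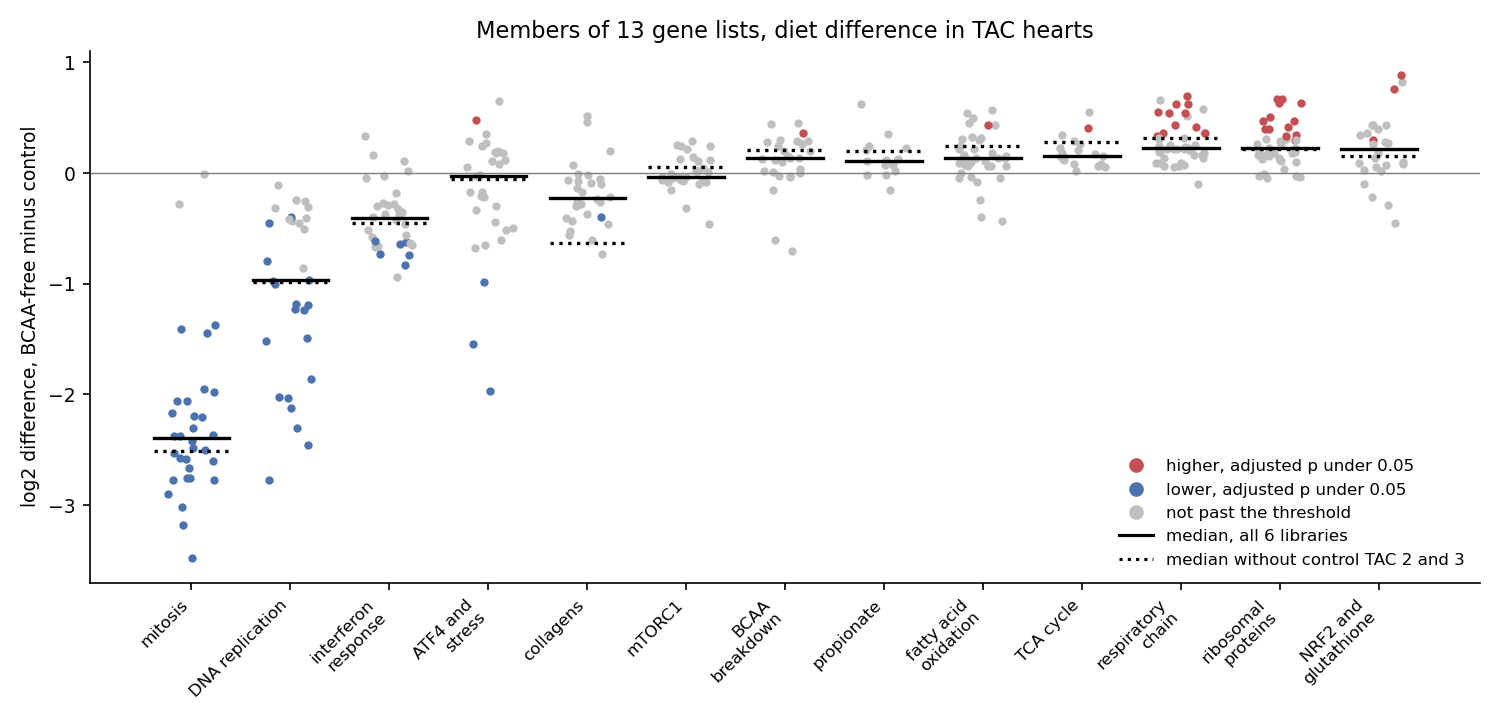
Log2 difference (BCAA-free minus control, TAC hearts) of each member of 13 gene lists, red and blue for members higher and lower past the adjusted p of 0.05 and grey for the rest, with a solid line at the list median and a dotted line at the median without control TAC 2 and 3. Mitosis and DNA replication lie lowest, with medians of -2.40 and -0.97, while the dotted line of the collagen list lies at -0.63 against -0.23 for the solid line.

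In a list of 31 genes linked to the factor ATF4 and the integrated stress response 1 was higher and 3 were lower. Mthfd2, which makes formyl units for purine synthesis from folate in mitochondria, had 687, 435 and 536 normalised reads in control TAC 1, 2 and 3 and 172, 111 and 131 in BCAA-free TAC 1, 2 and 3 (log2 -1.97 ± 0.20, adjusted p = 0.00307). Cebpb, a transcription factor of stress and inflammation, had 1664, 1510.1 and 1882 normalised reads in control TAC 1, 2 and 3 and 796, 731 and 1049 in BCAA-free TAC 1, 2 and 3 (log2 -0.98 ± 0.14, adjusted p = 0.00767). Slc7a1, a transporter of arginine and lysine, had 1015, 1012 and 998 normalised reads in control TAC 1, 2 and 3 and 1363, 1422 and 1438 in BCAA-free TAC 1, 2 and 3 (log2 0.48 ± 0.07, adjusted p = 0.00819). Mthfd2 and Cebpb were lower and Slc7a1 higher without overlap between the diets. The third of the lower genes was Mthfd1l (log2 -1.54 ± 0.28, adjusted p = 0.0199), the next mitochondrial enzyme of the folate route.

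Other genes of amino acid shortage did not move past the threshold by limma. Atf4 itself was at log2 -0.03 ± 0.09, adjusted p = 0.889, Ddit3 at log2 0.19 ± 0.10, adjusted p = 0.346 and Trib3 at log2 0.18 ± 0.20, adjusted p = 0.661. Asns, asparagine synthetase, had lower values without overlap but did not pass (log2 -0.65 ± 0.19, adjusted p = 0.0974), and Psat1, a serine synthesis enzyme, was at log2 -0.52 ± 0.21, adjusted p = 0.218. The median of the list was -0.03, near the 0.00 over all genes. Of its 31 genes edgeR called 4 and DESeq2 6, and 11 had an unadjusted limma p under 0.05, against 3222 of all 16222 genes. The groups stood apart with the BCAA-free diet lower in 7, against 13% of all genes, and higher in 2, against 12.6%. Slc7a1 did not pass with control TAC 2 left out (adjusted p = 0.0522), and Mthfd1l did not pass with control TAC 1 or 2, or BCAA-free TAC 3 left out (adjusted p = 0.0529 to 0.0963). In the mTORC1 and amino acid sensing list 0 of 32 passed by limma, with 5 at an unadjusted p under 0.05, 0 by edgeR and 2 by DESeq2, and a median of -0.03. Its smallest p belonged to Fnip2, a partner of the folliculin complex, with 797, 891 and 967 in the controls and 692, 575 and 661 on the BCAA-free diet (log2 -0.46 ± 0.11, adjusted p = 0.0536). Fnip2 passed after TMM scaling (adjusted p = 0.0489) and by DESeq2 (adjusted p = 0.00759).

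Of 27 genes that handle the amino acids missing from the diet, 1 passed by limma, 1 by edgeR and 5 by DESeq2. At an unadjusted limma p under 0.05 there were 10, against 3222 of all 16222 genes. Acadsb, the dehydrogenase for short branched acyl-CoA on the isoleucine route, had 3519.9, 3785 and 3705 normalised reads in control TAC 1, 2 and 3 and 4455, 4681 and 4995 in BCAA-free TAC 1, 2 and 3 (log2 0.36 ± 0.07, adjusted p = 0.0277). It was the member that passed by limma, and it did not pass with any 1 library other than BCAA-free TAC 1 left out (adjusted p = 0.0787 to 0.11). The first shared steps, Bcat2 (log2 0.24 ± 0.08, adjusted p = 0.12), Bckdha (log2 0.45 ± 0.15, adjusted p = 0.132) and Bckdhb (log2 0.13 ± 0.10, adjusted p = 0.524), and the kinase that restrains the dehydrogenase, Bckdk (log2 0.20 ± 0.08, adjusted p = 0.191), did not pass. Ivd of the leucine route was at log2 0.44 ± 0.12, adjusted p = 0.0787, and the transporter gene Slc7a5 at log2 -0.60 ± 0.15, adjusted p = 0.0625. In 20 of 27 members the difference was positive, with a median of 0.14 and 0.21 without control TAC 2 and 3. For propionate, 0 of the 14 genes tested passed by limma, edgeR and DESeq2, with 2 at an unadjusted limma p under 0.05 and a median of 0.11. Pcca, a subunit of propionyl-CoA carboxylase, had 2321, 2761 and 2708 in the controls and 2852, 3217 and 3174 on the BCAA-free diet (log2 0.25 ± 0.09, adjusted p = 0.162), and Pccb, the other subunit, was at log2 0.08 ± 0.10, adjusted p = 0.714.

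Genes of mitochondrial respiration were higher in part. Of 45 nuclear genes of the respiratory chain 11 were higher and 0 lower, with a median of 0.23 and 0.32 without control TAC 2 and 3. Of the 11, 0 passed in every fit that left out 1 library. Cox6c, a subunit of cytochrome c oxidase, had 19406, 21013 and 22203 normalised reads in control TAC 1, 2 and 3 and 28058, 35339.9 and 33158 in BCAA-free TAC 1, 2 and 3 (log2 0.62 ± 0.10, adjusted p = 0.0141). Cox6b1, another subunit of that complex, had 16966, 18648 and 19856 normalised reads in control TAC 1, 2 and 3 and 24961, 29206 and 26573 in BCAA-free TAC 1, 2 and 3 (log2 0.54 ± 0.09, adjusted p = 0.0151). Ndufa2, a subunit of complex I, had 5309, 5994 and 5937 normalised reads in control TAC 1, 2 and 3 and 7345, 9344 and 8643 in BCAA-free TAC 1, 2 and 3 (log2 0.55 ± 0.10, adjusted p = 0.0189). Each was higher in every BCAA-free library than in any control library, and within the BCAA-free group replicate 1 was the lowest. In 27 of the 45 members the groups stood apart with the BCAA-free diet higher, against 12.6% of all genes, and in 0 the other way, against 13% of all genes. Cox17, a copper chaperone of cytochrome c oxidase outside the list, had 1687, 1819 and 2010.0 in the controls and 2788, 2992 and 3057 on the BCAA-free diet (log2 0.68 ± 0.08, adjusted p = 0.00478) and passed whichever library was left out. Among subunits of cytochrome c oxidase outside the list, Cox7a2 and Cox8a were higher past the threshold and Cox6a1 was lower. Of 13 mitochondrially encoded transcripts 0 passed by limma and 1 by DESeq2. Their median was 0.04, with 7 positive and 6 negative. Cox6c did not pass with control TAC 2, or BCAA-free TAC 2 or 3 left out (adjusted p = 0.056 to 0.0763), Cox6b1 with control TAC 2, or BCAA-free TAC 2 or 3 left out (adjusted p = 0.0515 to 0.0797), or Ndufa2 with any 1 library other than BCAA-free TAC 1 left out (adjusted p = 0.0554 to 0.0874).

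Fuel oxidation genes beyond the respiratory chain showed smaller differences. Sdhc, a membrane subunit of succinate dehydrogenase, was the 1 of 19 genes of the TCA cycle to pass by limma (log2 0.40 ± 0.08, adjusted p = 0.0255), and 19 of 19 were positive with a median of 0.15. DESeq2 called 5 of the 19, and 7 had an unadjusted limma p under 0.05, against 3222 of all 16222 genes. Acot13, a thioesterase of acyl-CoA, was the 1 of 38 genes of fatty acid uptake and oxidation to pass by limma (log2 0.43 ± 0.10, adjusted p = 0.0478), with 0 by edgeR, 9 by DESeq2 and 10 at an unadjusted limma p under 0.05. The list median was 0.14 and 31 of 38 were positive, among them the muscle transferase Cpt1b (log2 0.32 ± 0.09, adjusted p = 0.0822) and the fatty acid receptor Cd36 (log2 0.33 ± 0.09, adjusted p = 0.0951). Acot13 did not pass by edgeR (adjusted p = 0.061), after quantile normalization (adjusted p = 0.0671) or with length-bin medians removed (adjusted p = 0.127). Sdhc did not pass with any 1 library other than BCAA-free TAC 1 left out (adjusted p = 0.0541 to 0.121), nor Acot13 with control TAC 1 or 2, or BCAA-free TAC 2 or 3 left out (adjusted p = 0.0844 to 0.192). Cardiomyocyte marker sums, given above, overlapped between the diets but were highest in BCAA-free TAC 2 and 3. The median of these markers was 0.19, and their part in these rises was not tested.

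Genes of cytosolic ribosomes were higher in part. Of 40 ribosomal protein genes 13 were higher and 0 lower, with a median of 0.22 and 0.22 without control TAC 2 and 3. Rps28, a protein of the small subunit, had 4371, 4269 and 4300.4 normalised reads in control TAC 1, 2 and 3 and 6147, 7279 and 7193 in BCAA-free TAC 1, 2 and 3 (log2 0.67 ± 0.08, adjusted p = 0.00464). Rps20, also of the small subunit, had 5132, 4739.7 and 5188 normalised reads in control TAC 1, 2 and 3 and 7259, 8360.4 and 7723 in BCAA-free TAC 1, 2 and 3 (log2 0.63 ± 0.08, adjusted p = 0.00473). Rpl37, of the large subunit, had 4003, 4061 and 4305 normalised reads in control TAC 1, 2 and 3 and 5899.7, 7064 and 6223 in BCAA-free TAC 1, 2 and 3 (log2 0.63 ± 0.08, adjusted p = 0.00545). The controls lay close together in all 3 genes and each BCAA-free library lay above them. Rpl39, of the large subunit and outside the list, had 3233, 3234 and 3348 in the controls and 4827, 5407 and 4952 on the BCAA-free diet (log2 0.63 ± 0.07, adjusted p = 0.00387), and Sec61g, a subunit of the channel that takes new proteins into the endoplasmic reticulum, had 720.4, 772 and 816 in the controls and 1191, 1392 and 1397 on the BCAA-free diet (log2 0.78 ± 0.09, adjusted p = 0.00464). Rpl39 and Sec61g passed whichever library was left out, and so did 4 of the 13 list members, Rps28, Rps20 and Rpl37 among them. The groups did not overlap in 30 of 40 members, all with the BCAA-free diet higher, against 12.6% of all genes. Ribosomal protein genes have many processed copies in the genome, and how the counting split such reads is not given in the sources used here.

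Gene length moved with the difference. Over the 368 genes with at most 500 bases of exon the median log2 difference was 0.11, and over the 2557 genes with more than 8000 bases it was -0.08. The share of genes that were higher fell from 4.08% to 0.313% between these classes, and the share that were lower went from 0.543% to 2.82%. Without control TAC 2 and 3 the medians were 0.14 and -0.07. The median exon length was 2098.5 bases for genes that were higher, 4934 for genes that were lower and 4048 for all. After the median of each of 20 length bins was taken out of every library, 149 genes were higher and 311 lower, 137 and 294 of them among the original calls. Mitosis then had 29 lower and DNA replication 17, respiratory chain genes had 6 higher with a median of 0.16, and ribosomal protein genes 9 higher with a median of 0.16. This adjustment was chosen after seeing the data.

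**Figure D5:**
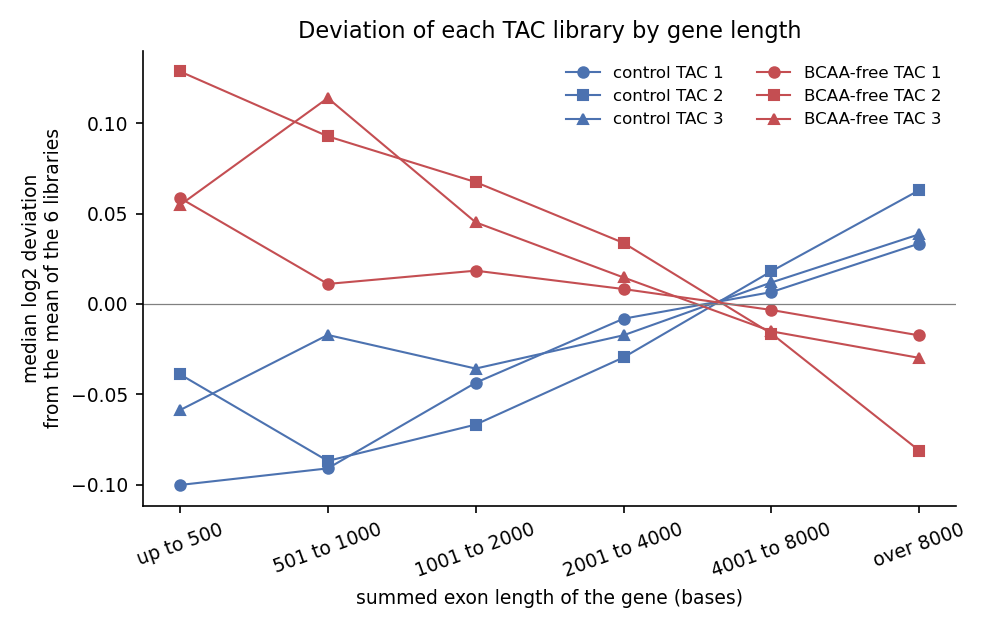
Median log2 deviation of each TAC library from the mean of the 6 libraries (vertical axis) in 6 classes of summed exon length in bases (horizontal axis), blue for control TAC and red for BCAA-free TAC, with 1 symbol per replicate. The control libraries lie under 0 up to 4000 bases and above it in longer genes, and the BCAA-free libraries the other way round, at 0.05 to 0.13 in genes up to 500 bases and -0.02 to -0.08 in genes over 8000 bases.

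Interferon-stimulated genes were lower in part. Of 32 such genes 6 were lower and 0 higher, with a median of -0.41 and -0.45 without control TAC 2 and 3. Bst2, tetherin, which holds budding viruses at the cell surface, had 1222, 1216 and 1260.1 normalised reads in control TAC 1, 2 and 3 and 895, 785 and 736 in BCAA-free TAC 1, 2 and 3 (log2 -0.62 ± 0.09, adjusted p = 0.00852). Ifit2, which binds foreign RNA, had 771, 834 and 817 normalised reads in control TAC 1, 2 and 3 and 545, 448 and 567 in BCAA-free TAC 1, 2 and 3 (log2 -0.64 ± 0.11, adjusted p = 0.0155). Oasl2, a relative of the 2′-5′ oligoadenylate synthetases, had 611, 604 and 675 normalised reads in control TAC 1, 2 and 3 and 457, 347 and 333 in BCAA-free TAC 1, 2 and 3 (log2 -0.74 ± 0.13, adjusted p = 0.019). The control values lay close together in all 3, above each BCAA-free value. The others that passed were Ifit3 (-0.62), Gbp3 (-0.73) and Cmpk2 (-0.83), and 0 of the 6 passed in every fit that left out 1 library. Ifit3 did not pass with any 1 library other than BCAA-free TAC 1 left out (adjusted p = 0.0913 to 0.132), Gbp3 with control TAC 1, 2 or 3, or BCAA-free TAC 2 left out (adjusted p = 0.0513 to 0.109) or Cmpk2 with control TAC 2 or 3, or BCAA-free TAC 2 left out (adjusted p = 0.079 to 0.104). In 20 of 32 members the groups stood apart with the BCAA-free diet lower, against 13% of all genes, and in 1, Iigp1, with it higher (log2 0.33 ± 0.18, adjusted p = 0.346), against 12.6%. Bst2 did not pass with control TAC 2 left out (adjusted p = 0.0506), Ifit2 with control TAC 2 or 3 left out (adjusted p = 0.0643 and 0.0861) or Oasl2 with any 1 library other than BCAA-free TAC 1 left out (adjusted p = 0.0511 to 0.101). Ifit1bl1, which carries an interferon-type name but is not in the list, was higher (log2 0.88 ± 0.15, adjusted p = 0.0155) and did not pass with control TAC 2, or BCAA-free TAC 2 or 3 left out (adjusted p = 0.0596 to 0.0852).

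The largest rises included a clock gene. Arntl encodes BMAL1, the partner of CLOCK in the core of the circadian oscillator. It had 57.2, 50.2 and 71.6 normalised reads in control TAC 1, 2 and 3 and 293, 223 and 155 in BCAA-free TAC 1, 2 and 3 (log2 1.80 ± 0.24, adjusted p = 0.00643). The lowest BCAA-free library held more reads than the highest control library, and Arntl passed whichever library was left out (adjusted p = 0.00799 to 0.0453). Wee1, a kinase that holds back CDK1 and is also a clock output, had 1074, 1159 and 921 normalised reads in control TAC 1, 2 and 3 and 493, 664 and 734 in BCAA-free TAC 1, 2 and 3 (log2 -0.75 ± 0.15, adjusted p = 0.0313), lower in each BCAA-free library. In the list of 20 clock genes these 2 passed by limma, with 7 by DESeq2. At an unadjusted limma p under 0.05 there were 10, against 3222 of all 16222 genes. The groups stood apart with the BCAA-free diet higher in 3, against 12.6% of all genes, and lower in 7, against 13%. Per2 (log2 -0.84 ± 0.21, adjusted p = 0.0689) and Per3 (log2 -0.42 ± 0.13, adjusted p = 0.117) had lower values and Nr1d1 (log2 0.47 ± 0.12, adjusted p = 0.07) higher values without overlap, and none of the 3 passed by limma. Clock stood at log2 0.00 ± 0.13, adjusted p = 0.989. The hour at which hearts were taken is not given in the labels, and Wee1 did not pass with control TAC 1, 2 or 3, or BCAA-free TAC 2 left out (adjusted p = 0.0513 to 0.142).

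Ptgds, Igfbp6, Ccdc3, Smim4, mt-Tc and mt-Tn were further genes named for their rise. Ptgds, prostaglandin D synthase, had 13728, 14255 and 22496 normalised reads in control TAC 1, 2 and 3 and 36222, 40267 and 32228 in BCAA-free TAC 1, 2 and 3 (log2 1.14 ± 0.18, adjusted p = 0.0116). Igfbp6, a binding protein for insulin-like growth factors, had 582, 549.5 and 581 normalised reads in control TAC 1, 2 and 3 and 931, 1021 and 924 in BCAA-free TAC 1, 2 and 3 (log2 0.74 ± 0.08, adjusted p = 0.0041). Ccdc3, a secreted protein, had 54.6, 56.7 and 63.7 normalised reads in control TAC 1, 2 and 3 and 103, 113 and 127 in BCAA-free TAC 1, 2 and 3 (log2 0.92 ± 0.17, adjusted p = 0.0252). Control and BCAA-free libraries stood apart in each, and control TAC 3 was the highest control for Ptgds and Ccdc3. Smim4, a small mitochondrial membrane protein, was at log2 0.91 ± 0.17, adjusted p = 0.0231. The mitochondrial tRNA genes mt-Tc and mt-Tn were at log2 1.00 ± 0.15, adjusted p = 0.00984 and log2 0.87 ± 0.15, adjusted p = 0.017, annotated with 66 and 71 bases, where reads of longer mitochondrial RNA cannot be told apart. Ptgds did not pass with control TAC 2 or BCAA-free TAC 2 left out (adjusted p = 0.0674 and 0.0728), Ccdc3 with any 1 library other than BCAA-free TAC 1 left out (adjusted p = 0.0679 to 0.111), Smim4 with any 1 library other than BCAA-free TAC 1 left out (adjusted p = 0.0523 to 0.0926), mt-Tc with control TAC 2 or BCAA-free TAC 2 left out (adjusted p = 0.0584 and 0.065) or mt-Tn with control TAC 2 or BCAA-free TAC 2 left out (adjusted p = 0.0833 and 0.0991). Igfbp6 passed in each of these fits. In sham hearts the log2 diet difference was 1.16 for Ptgds (limma adjusted p = 0.00339), 1.02 for Ccdc3 (adjusted p = 0.0621) and 0.26 for Smim4 (adjusted p = 0.396). It was -0.05 for Igfbp6, -0.004 for mt-Tc and -0.08 for mt-Tn there. In the limma test of TAC minus sham differences described below, Igfbp6 passed and the others named here did not (adjusted p = 0.192 to 0.983).

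Of 26 genes in the NRF2 and glutathione list 3 were higher and 0 lower by limma. Gstm1, which joins glutathione to reactive compounds, had 3852, 4345 and 5013 normalised reads in control TAC 1, 2 and 3 and 6121, 10366 and 8380.2 in BCAA-free TAC 1, 2 and 3 (log2 0.89 ± 0.17, adjusted p = 0.0289). Gstm2, a neighbour of the same family, had 2206, 2233 and 2384 normalised reads in control TAC 1, 2 and 3 and 3041, 4767 and 3976 in BCAA-free TAC 1, 2 and 3 (log2 0.76 ± 0.14, adjusted p = 0.0231). Replicate 2 was the highest and replicate 1 the lowest BCAA-free library in both, above every control. Prdx1, a peroxiredoxin, was at log2 0.30 ± 0.07, adjusted p = 0.0497, and the list median was 0.22. Gstm1 did not pass with control TAC 1 or 2, or BCAA-free TAC 2 or 3 left out (adjusted p = 0.0848 to 0.121) nor Gstm2 with any 1 library other than BCAA-free TAC 1 left out (adjusted p = 0.0597 to 0.102). Prdx1 did not pass with any 1 library other than BCAA-free TAC 1 left out (adjusted p = 0.0885 to 0.183), by edgeR (adjusted p = 0.0653), after TMM scaling (adjusted p = 0.0514), after quantile normalization (adjusted p = 0.081) or with length-bin medians removed (adjusted p = 0.0689).

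Among autophagy and muscle breakdown genes 3 of 23 were higher and 0 lower. Map1lc3b and Map1lc3a encode the LC3 proteins that coat autophagosomes, and Ctsl encodes the lysosomal protease cathepsin L. Map1lc3b was at log2 0.42 ± 0.08, adjusted p = 0.0241, Map1lc3a at log2 0.40 ± 0.08, adjusted p = 0.0244 and Ctsl at log2 0.43 ± 0.09, adjusted p = 0.0329, each without overlap of the groups. The list median was 0.11. Map1lc3b did not pass with any 1 library other than BCAA-free TAC 1 left out (adjusted p = 0.0564 to 0.111), Map1lc3a with any 1 library other than BCAA-free TAC 1 left out (adjusted p = 0.0505 to 0.139) or Ctsl with control TAC 1, 2 or 3, or BCAA-free TAC 2 left out (adjusted p = 0.0821 to 0.145). Map1lc3a also did not pass after quantile normalization (adjusted p = 0.0575) or with length-bin medians removed (adjusted p = 0.0667).

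Genes of the fetal programme that overload switches on showed no common direction. Myh7, the slow myosin heavy chain that rises in stressed mouse ventricle, had 55036, 40525 and 40058 normalised reads in control TAC 1, 2 and 3 and 81959, 67482 and 80134 in BCAA-free TAC 1, 2 and 3 (log2 0.77 ± 0.14, adjusted p = 0.0214). It was higher in each BCAA-free library and was the 1 of 20 members to pass by limma, with 0.47 against control TAC 1 alone. DESeq2 called 2 of the 20, and 9 had an unadjusted limma p under 0.05, against 3222 of all 16222 genes. Differences were positive in 12 members and negative in 8. Nppa, atrial natriuretic peptide, was at log2 1.28 ± 0.42, adjusted p = 0.138 and Nppb, the B-type peptide, at log2 -0.30 ± 0.29, adjusted p = 0.614. Acta1, skeletal alpha-actin, had 80784, 65606 and 74989.8 normalised reads in control TAC 1, 2 and 3 and 67012, 22672 and 18584 in BCAA-free TAC 1, 2 and 3 (log2 -1.27 ± 0.40, adjusted p = 0.118), with BCAA-free TAC 1 in the range of the controls and the other two far lower. The list median was 0.07 and became -0.28 without control TAC 2 and 3. The 10 atrial markers summed to 1492 to 2532 CPM in control and 2138 to 4225 CPM in BCAA-free TAC hearts, highest in BCAA-free TAC 1. Nppa is itself 1 of these 10, and the list had a median of 0.31 with 3 of 10 negative. Its part in Myh7 was not tested. Myom2, an M-band protein, was the 1 of 18 adult sarcomere genes to pass by limma (log2 0.55 ± 0.10, adjusted p = 0.0238). DESeq2 called 6 of the 18, and 6 had an unadjusted limma p under 0.05. The groups stood apart with the BCAA-free diet higher in 9, against 12.6% of all genes, and lower in 1, against 13%. The sarcomere median was 0.16 with 14 of 18 positive, and 0.24 without control TAC 2 and 3. Myh7 did not pass with control TAC 2 or 3, or BCAA-free TAC 2 or 3 left out (adjusted p = 0.0553 to 0.118) or after quantile normalization (adjusted p = 0.093), and Myom2 did not pass with control TAC 1, 2 or 3, or BCAA-free TAC 2 left out (adjusted p = 0.0668 to 0.115).

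In 2 of 28 collagen genes the groups stood apart with the BCAA-free diet lower, against 13% of all genes, and in 0 with it higher, against 12.6%. Summed over 26 collagen and collagen-processing genes found in both diet tables, control TAC hearts held 5514, 3248 and 3601 CPM and BCAA-free TAC hearts 4697, 2513 and 2228 CPM. The library numbered 1 was the highest of its group on both diets. Col1a1, a chain of fibrillar type I collagen, was at log2 -0.28 ± 0.43, adjusted p = 0.771 with all libraries and -1.11 against control TAC 1 alone. Postn, periostin of activated fibroblasts, was at log2 -0.06 ± 0.50, adjusted p = 0.963 and -0.93. Plod1, a lysyl hydroxylase, was the 1 of 28 members to pass (log2 -0.39 ± 0.08, adjusted p = 0.0286), and Dcn, the collagen-binding proteoglycan decorin, was the 1 of 29 in the matricellular list (log2 0.39 ± 0.08, adjusted p = 0.0289). Dcn is also 1 of the 13 fibroblast markers given above. The collagen list had a median of -0.23 and -0.63 without control TAC 2 and 3, and the matricellular list 0.23 and -0.44. Plod1 did not pass with any 1 library other than BCAA-free TAC 1 left out (adjusted p = 0.0513 to 0.141), nor Dcn with control TAC 2 or 3, or BCAA-free TAC 2 or 3 left out (adjusted p = 0.0734 to 0.132) or after quantile normalization (adjusted p = 0.0961).

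Vessel genes that passed included the apelin pair. Apln, the apelin peptide made by endothelial tip cells, had 536, 717 and 746 normalised reads in control TAC 1, 2 and 3 and 304, 309 and 217 in BCAA-free TAC 1, 2 and 3 (log2 -1.26 ± 0.17, adjusted p = 0.00675). Its receptor Aplnr had 1092, 1452 and 1375 normalised reads in control TAC 1, 2 and 3 and 888, 392 and 361 in BCAA-free TAC 1, 2 and 3 (log2 -1.36 ± 0.30, adjusted p = 0.0431), with BCAA-free TAC 1 nearer to the controls than the others. The groups did not overlap in either gene, and these 2 of the 27 genes in the angiogenesis and hypoxia list passed. Vegfa (log2 -0.29 ± 0.10, adjusted p = 0.164), Kdr (log2 -0.11 ± 0.07, adjusted p = 0.428) and Esm1, a tip cell marker (log2 -0.89 ± 0.26, adjusted p = 0.0991), did not. Nid2, a basement membrane protein, had 1584, 1566 and 1498 normalised reads in control TAC 1, 2 and 3 and 746, 681 and 661 in BCAA-free TAC 1, 2 and 3 (log2 -1.15 ± 0.08, adjusted p = 0.000794), with narrow groups far apart. Apln and Nid2 passed whichever library was left out. Aplnr did not pass with any 1 library other than BCAA-free TAC 1 left out (adjusted p = 0.0706 to 0.187), by edgeR (adjusted p = 0.0722) or by DESeq2 (adjusted p = 0.051). Endothelial marker sums, given above, were lower on the BCAA-free diet, and their part in these falls was not tested.

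Immune genes outside the interferon list moved singly. Serping1, the inhibitor of complement C1, had 3407, 3022 and 2981 normalised reads in control TAC 1, 2 and 3 and 4718, 4472 and 4099 in BCAA-free TAC 1, 2 and 3 (log2 0.50 ± 0.08, adjusted p = 0.0142) and was the 1 of 17 complement genes to pass. The complement median was 0.20 and became -0.18 without control TAC 2 and 3. The mast cell marker Kit, a receptor of stem cell factor, was lower (log2 -1.28 ± 0.18, adjusted p = 0.00752), and the 5 mast cell markers listed summed to 9.48 to 11.8 CPM in control and 5.56 to 6.7 CPM in BCAA-free TAC hearts. Kit is 1 of these 5, and the list had a median of -0.05 with 2 of 5 positive. Serping1 did not pass with control TAC 2 or 3, or BCAA-free TAC 2 left out (adjusted p = 0.0599 to 0.0826). T and NK cell markers summed to 5.19 to 6.53 CPM in control and 5.01 to 16.3 CPM in BCAA-free TAC hearts, with 0 of 10 past the threshold and BCAA-free TAC 1 the highest.

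The same diets in sham hearts, which share no library with the TAC comparison, show what the diet did without overload. Of 15596 genes tested there 438 passed (2.81%), 163 higher and 275 lower. With no intensity trend limma called 0, with 2502 at an unadjusted p under 0.05, and with 1 library left out it called 68 to 1020, while edgeR called 464 and DESeq2 812. The lowest counts were 99, 68 and 88 without BCAA-free sham 1, 2 and 3 and 279 without control sham 2, and the highest was 1020 without control sham 3. Genes called in both comparisons numbered 57, which is 10.4% of the calls in TAC hearts and 13% of those in sham hearts, and all 57 had the same sign. Of the genes lower in TAC hearts 273 of the 304 tested in sham hearts were negative there, and of those higher 172 of 205 were positive. Over all genes tested in both comparisons, 7658 of 15445 were negative in sham hearts. The mitosis list had a median of -0.72 in sham hearts over the 25 of its 32 genes tested there, with 4 lower. The median of -2.40 in TAC hearts covers all 32, so the medians are not over the same genes. DNA replication had a median of -0.20 over 30 genes, with 1 lower. Interferon genes had a median of -0.61 in sham hearts with 10 of 31 lower, and collagen genes -0.45 with 17 of 26 lower, against 275 of all 15596 genes. Respiratory chain and ribosomal protein medians were 0.02 and 0.09 there.

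Whether the diet acted differently under overload was tested as the difference of the diet effects, TAC minus sham, each taken within its own table, over 15458 genes. By limma 7 passed (0.0453%), 1 positive and 6 negative, with 1571 at an unadjusted p under 0.05. Lmnb1, lamin B1 of the nuclear lamina, had 628, 633 and 585 in control TAC and 234, 235 and 227 in BCAA-free TAC libraries, and 224, 208 and 197 in control sham and 181, 180.5 and 188 in BCAA-free sham libraries (-1.20 ± 0.14, adjusted p = 0.00496). Stmn1, stathmin, which takes microtubules apart, had 1005, 884 and 799.6 in control TAC and 418, 386 and 353 in BCAA-free TAC libraries, and 290.2, 376 and 315 in control sham and 330.0, 289.6 and 274 in BCAA-free sham libraries (-1.08 ± 0.17, adjusted p = 0.0413). Igfbp6 had 513, 589.7 and 494 in control sham and 525, 493 and 521 in BCAA-free sham libraries beside the TAC values given above (0.79 ± 0.12, adjusted p = 0.0413). For Lmnb1 and Stmn1 the control TAC libraries were high and the other 3 groups lower, and for Igfbp6 the BCAA-free TAC libraries alone were high. The mitosis and DNA replication lists held 0 genes past this test by limma, of 25 and 30 tested, with 20 and 23 at an unadjusted p under 0.05. Prc1 had a difference of -1.95 (adjusted p = 0.102) and Mcm5 of -1.45 (adjusted p = 0.122).

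For Klf2 and Srsf2 the sham hearts differed as well. Klf2, a transcription factor of endothelium and resting lymphocytes, had 2764, 2984 and 2746 in control TAC and 2367, 2825 and 2716 in BCAA-free TAC libraries, and 1319.9, 1592 and 1677 in control sham and 3746, 3164 and 2989 in BCAA-free sham libraries (-1.21 ± 0.14, adjusted p = 0.00496). Srsf2, a splicing factor, had 4593, 3987 and 4190.0 in control TAC and 3565, 3379 and 3794 in BCAA-free TAC libraries, and 3093, 2912 and 3132 in control sham and 3915, 3988 and 4012 in BCAA-free sham libraries (-0.63 ± 0.09, adjusted p = 0.0361). Klf2 overlapped between the diets in TAC hearts and was higher on the BCAA-free diet in sham hearts, and Srsf2 had lower values in TAC hearts (log2 -0.25, adjusted p = 0.119) and higher values in sham hearts (log2 0.38, adjusted p = 0.00607). Cdc7, a kinase that fires replication origins, had 114, 119 and 83.5 in control TAC and 23.1, 32.5 and 26.9 in BCAA-free TAC libraries (-1.98 ± 0.31, adjusted p = 0.0413), and Gm25262, a predicted gene at few reads, was at -2.52 ± 0.40, adjusted p = 0.0413. Cdc7 and Gm25262 fall outside the rule for named genes and were chosen after their values were seen. Lmnb1 and Klf2 passed in 12 of 12 fits that left out 1 library, Igfbp6 in 4, Srsf2 in 5, Stmn1 in 2, Gm25262 in 2 and Cdc7 in 1. Without control TAC 2 and 3, 0 of the 7 passed. Serping1, H2-Aa and H2-Eb1 were named by the same rule to fill the places of positive differences and did not pass (adjusted p = 0.122, 0.0675 and 0.122). H2-Aa and H2-Eb1, which encode MHC class II chains, had diet differences of 0.46 and 0.32 in TAC hearts and -0.72 and -0.78 in sham hearts.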

How the data were processed

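RNA of whole hearts was sequenced in 12 libraries, 3 for each of 4 groups, and the groups were taken from the sample titles. The authors deposited 1 table of normalised signal per comparison, read counts per gene scaled by 1 size factor for each library, made with Trimmomatic 0.36, STAR 2.5.2b, Subread 1.5.2 and DESeq2 on GRCm38 (mm10), per the submitters' processing notes. For the library kit and the strand setting of the counting the sources used here give nothing, so antisense, overlapping and near-identical genes are uncertain. Each value was a whole multiple of what 1 read is worth in its library (100% within 0.001), which gave the reads. Of the 16234 genes listed, 560 were higher and 628 lower past an adjusted p-value of 0.05 in the authors' deposited table, and these p-values and the deposited log2 fold changes were not used further.

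Genes with a mean of at least 10 were tested on log2(value + 4) with limma 3.58.1 and an intensity trend in R 4.3.3, with Benjamini-Hochberg adjustment over all genes and a threshold of 0.05. The scripts were tested on simulated data. Alternatives were edgeR 4.0.16 and DESeq2 1.42.0 on the recovered reads, TMM and quantile scaling, other pseudocounts and filters, no trend, a replicate block and left-out libraries. Removing the median of 20 bins of exon length, from GENCODE M21 for 16196 genes, was chosen after seeing the data.

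Named genes were the 8 largest rises and 8 largest falls past the threshold among genes whose mean was 50 or more, with an established symbol and groups that do not overlap, up to 6 in each direction with the smallest p that passed whichever library was left out, up to 3 per gene list with the smallest p, and the 4 largest differences in each direction between TAC and sham hearts, filled to 4 where fewer passed. Further list members were picked after their values were seen. The comparison, the gene lists and the rule were chosen with earlier results of these data known. Promoter windows came from RefSeq on GRCm38.p6.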

Additional observations from a re-analysis of the deposited data

Results flagged for a closer look

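For 7 genes the effect of the BCAA-free diet differed between TAC and sham hearts by a direct test of that difference in limma, at an adjusted p under 0.05 over 15458 genes. Values are the log2 diet effect in TAC hearts minus that in sham hearts. Igfbp6 stood at 0.79 (adjusted p = 0.0413), with higher reads in the 3 BCAA-free TAC libraries than in the other 9. Lmnb1 stood at -1.20 (adjusted p = 0.00496) and Stmn1 at -1.08 (adjusted p = 0.0413), both highest in the 3 control TAC libraries. Cdc7 stood at -1.98 (adjusted p = 0.0413), also highest in control TAC. Klf2 stood at -1.21 (adjusted p = 0.00496) and Srsf2 at -0.63 (adjusted p = 0.0361), both with higher values on the BCAA-free diet in sham hearts. Gm25262 stood at -2.52 (adjusted p = 0.0413) at a low level. Lmnb1 and Klf2 passed in 12 of 12 fits that left out 1 library, and the other 5 genes lost their call in at least 7 of them. Without control TAC 2 and 3 none of the 7 passed by limma (adjusted p = 0.0726 to 0.224).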

How the results depend on the processing

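The 548 genes that differed by diet in TAC hearts became 177 with no intensity trend, 1188 by DESeq2, 138 to 1044 with 1 library left out, and 0 by limma or 11 by edgeR with control TAC 2 and 3 left out. The 7 genes whose diet effect differed between TAC and sham hearts became 4 at a mean of at least 50, 3 with no trend, 111 by DESeq2, 2 to 17 with 1 library left out and 1 without control TAC 2 and 3. The 438 genes of the sham comparison became 0 by limma with no trend, 812 by DESeq2 and 68 to 1020 with 1 library left out. With the replicate number as a replicate block the 3 counts were 1275, 168 and 713; same-numbered TAC libraries correlated at 0.22, -0.01 and 0.07 in their deviations, and not every library correlated best with its own number, so the numbers are not taken as pairs. Of the values recomputed for the 67 named genes, 990 kept direction and call, 275 no longer passed, 8 newly passed and 0 reversed. The fetal programme median of 0.07 reversed to -0.013 after quantile normalization, -0.02, -0.07 and -0.19 without control TAC 2, control TAC 3 and BCAA-free TAC 1 (range -0.19 to 0.17 over single libraries left out), -0.28 without control TAC 2 and 3, and -0.25 there by edgeR. The matricellular median of 0.23 reversed to -0.03 and -0.11 without control TAC 3 and BCAA-free TAC 1 (range -0.11 to 0.52), -0.44 without control TAC 2 and 3, and -0.35 there by edgeR. The complement median of 0.20 reversed to -0.18 and, by edgeR, -0.17 without control TAC 2 and 3. The causes were not tested. With 3 libraries a group and 36383837 to 46099197 reads per TAC library, differences smaller than the spread between libraries were not detectable.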
